A study of Homo sapiens with 6 samples.

Results

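The genes C1R, C1S and C1RL, neighbours on human chromosome 12, encode the serine proteases of the first complement component and a close relative. They were chosen by name from the authors' deposited table of 453 features, 452 of them genes and 1 a spike-in RNA, and all 3 were found there. The table holds only features with an unadjusted p under 0.05 for GDF15 against untreated, so the differences of the 3 genes between these groups are given as a description and without a test. Poly(A) RNA was sequenced from LX2, an established human hepatic stellate cell line. Stellate cells hold vitamin A in healthy liver and make scar matrix when it is injured. The sample labels give the cell type as epithelial, but the series' design names stellate cells. The GDF15 group has 3 libraries of cells given recombinant GDF15, a cytokine related to TGF-beta that many stressed cells secrete, at 1 ug/ml for 24 h. The untreated group has 3 libraries of LX2 cells without the protein. Whether these were separate cultures is not in the labels, so the spread between libraries may be technical. The study asked what GDF15 does to stellate cell expression.

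The classical pathway of complement starts when C1q, the recognition subunit of C1, binds an antibody complex or another surface. The protease C1r, bound to C1q together with C1s, then activates itself and cleaves C1s. Activated C1s cleaves C4 and C2, which leads to the convertase that splits C3, and C1 inhibitor, the product of SERPING1, stops both proteases. C1RL encodes a C1r-like protease that is not a subunit of C1. In liver, hepatocytes make most circulating complement, and fibroblast-like cells also make C1r and C1s.

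By group means the 3 genes were higher with GDF15, but for C1R and C1S nearly all of that difference lay in a single library. C1S was 1.83-fold, C1R 1.73-fold and C1RL 1.42-fold higher by the ratio of means. GDF15 replicate 1 stood at 3.04 times the untreated mean for C1R and 3.39 times for C1S. Without that library C1R and C1S were 1.07-fold and 1.05-fold higher, and C1RL was 1.22-fold higher. In bulk RNA, more cells expressing a gene and more of its RNA per cell cannot be told apart.

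All 3 genes lie within 121015 bases of GRCh38 in GENCODE release 29. C1S (ENSG00000182326) spans chromosome 12 from 6988259 to 7071032 on the plus strand. C1R (ENSG00000159403) spans 7080199 to 7092607 on the minus strand, so that C1S and C1R point towards each other with 9166 bases between their ends. C1RL (ENSG00000139178) spans 7089587 to 7109273, also on the minus strand. A C1RL transcript that reaches into C1R makes the annotated genes overlap by 3021 bases, and 672 exonic bases belong to both, 13.4% of those of C1RL and 11.4% of those of C1R. C1RL also shares 205 exonic bases with C1RL-AS1 on the opposite strand, and C1S shares 229 with EMG1. How counting used strand and treated such shared reads is not given in these sources, so reads in these stretches cannot be told apart, and levels of C1RL may hold reads of C1R. Other genes of the table within 1 Mb were TNFRSF1A and ENO2, out of 126 annotated genes in that window. Both were listed as higher, with log2 fold changes of 0.33 and 0.56 in the authors' deposited table, in which 60.5% of the 453 features were higher.

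**Figure D1:**
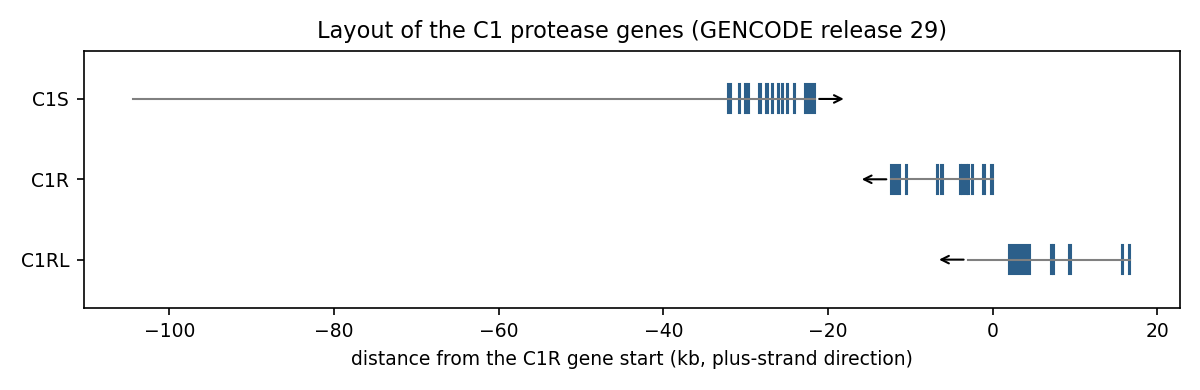
Position of C1S, C1R and C1RL in kb from the start of C1R, in plus-strand direction. Grey lines are the annotated gene spans, blue boxes the exons of 1 principal transcript per gene, and arrows the direction of transcription. C1S and C1R face each other across 9166 bases, and the C1RL span runs into C1R.

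The coding sequences show how the 3 are related. The stretch around the catalytic serine codon is shown for each from the GENCODE principal transcript, on chromosome 12, with that codon in capitals. The serine is part of the catalytic site of these proteases, and its codon alone does not show activity. The serine codon is codon 654 in C1R and codon 632 in C1S, counted from the start codon. For C1RL the capitals mark codon 436, which aligned with the C1R serine codon and is the same triplet.
C1R: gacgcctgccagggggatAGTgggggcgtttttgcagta
C1S: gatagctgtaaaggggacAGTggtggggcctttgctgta
C1RL: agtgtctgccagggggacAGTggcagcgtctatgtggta
Over aligned coding bases C1RL was 71.5% identical to C1R and 62.8% identical to C1S, and C1R was 61.1% identical to C1S. The longest run shared between their principal transcripts was 20 bases for C1RL and C1R, 16 for C1RL and C1S and 14 for C1R and C1S.

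Upstream sequence from RefSeq (GRCh38.p14) was matched for C1R, with a pair of annotated starts, and for C1RL. The reference set used here held no entry for C1S, so its upstream sequence was not searched. The 250 bases before the start are shown for the upstream C1R start and for C1RL, since these neighbours are read from the same strand and their levels can be compared library by library. Capitals mark the motif matches named below.
C1R, chr12:7092446-7092695, minus strand: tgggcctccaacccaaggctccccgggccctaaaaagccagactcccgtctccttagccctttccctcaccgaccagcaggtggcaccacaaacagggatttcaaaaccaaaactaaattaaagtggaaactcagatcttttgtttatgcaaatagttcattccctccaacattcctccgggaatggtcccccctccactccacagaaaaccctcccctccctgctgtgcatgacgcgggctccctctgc
C1RL, chr12:7109215-7109464, minus strand: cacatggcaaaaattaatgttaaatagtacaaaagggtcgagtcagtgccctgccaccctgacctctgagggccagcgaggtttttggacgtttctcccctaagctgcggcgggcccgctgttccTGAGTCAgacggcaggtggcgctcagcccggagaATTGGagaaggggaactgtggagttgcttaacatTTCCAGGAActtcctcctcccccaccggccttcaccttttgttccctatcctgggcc
Both strands were searched for 9 motifs. A pair of GAAA with 2 bases between them, the core of interferon response elements, is held by 3.02% of 35116 promoter windows of this length, and a pair with 3 bases between them by 2.497%. Neither window held either form. The same was true of GGG and TTTCC with 2 bases between them, as in NF-kB sites (1.73%), of TTC and GAA with 4 bases between them (5.38%), of TTGCNNCAA, as in C/EBP sites (1.62%), and of TATAAA (10.7%). C1RL held 1 match each to the STAT letters TTCNNNGAA (6.57%), the AP-1 letters TGANTCA (6.57%) and CCAAT (32.0%, here on the opposite strand), which did not overlap. The C1R window held none of the 9, and the window of the downstream C1R start held 1 match to TTCNNNGAA. By GENCODE the TTCNNNGAA match of C1RL lies within its first exon. The C1R gene starts at 7092607 by GENCODE, inside the C1R window shown. Most of that window is thus first exon of the principal transcript, and sequence further upstream of it was not searched. The window of the downstream C1R start lies wholly within the gene. The empty C1R window therefore does not show that these motifs are absent upstream of C1R. These matches describe letters and are no evidence of binding.

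Values are normalized counts, that is, the authors' read counts divided by a factor for each library. Within the 453 features they summed to between 322718 and 470046 in the GDF15 libraries and between 279332 and 317726 in the untreated libraries, the highest sum being that of GDF15 replicate 1. Each value was a whole multiple of a step of its library, within 0.001 of a step. If a step is 1 read, the 3 genes rest on 300 to 6083 reads per library. Exact Poisson 95% intervals on these numbers cover counting error only. The features summed here were selected on the outcome, so full library depth is unknown. The table held no genes of the marker lists for stellate cells, hepatocytes, macrophages, endothelial and epithelial cells (0 of 15, 10, 11, 8 and 7), and the label of the cells could therefore not be checked against markers.

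C1R, the protease that starts the cascade, had 6293, 2172 and 2234 normalized counts in GDF15 replicates 1, 2 and 3. In untreated replicates 1, 2 and 3 it had 2235, 1893 and 2073. GDF15 replicate 1 stood alone, and the other 5 libraries lay within a 1.18-fold range in which the groups overlapped. Untreated replicate 1 lay above GDF15 replicate 2 and, at 2235 against 2234, level with GDF15 replicate 3. The mean was 3566 ± 2361 with GDF15 and 2067 ± 171 without (SD, n = 3 each), a log2 ratio of 0.79. The coefficient of variation was 66.2% in the GDF15 libraries and 8.28% in the untreated libraries. Counting error was small against this gap, with a Poisson interval of 6135 to 6453 normalized counts in GDF15 replicate 1, against 2142 to 2332 in untreated replicate 1, the highest of that group.

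C1S, the protease that cleaves C4 and C2, had 1585, 455 and 530 normalized counts in GDF15 replicates 1, 2 and 3. The untreated libraries had 479, 430 and 495. Again GDF15 replicate 1 stood alone, and GDF15 replicate 2 lay below untreated replicates 1 and 3. The mean was 857 ± 632 with GDF15 and 468 ± 33.7 without (SD, n = 3 each), a log2 ratio of 0.87. GDF15 replicate 1 was 3.22 times the mean of GDF15 replicates 2 and 3 for C1S and 2.86 times for C1R. Among the 274 features listed as higher, 21 had a larger such excess than C1S and 30 a larger one than C1R, and the median over these features was 1.31.

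C1RL, the C1r-like gene, had a different distribution over the libraries. It had 661, 413 and 474 normalized counts in GDF15 replicates 1, 2 and 3, against 440, 284 and 367 in untreated replicates 1, 2 and 3. The groups overlapped by a single library on each side, untreated replicate 1 lying above GDF15 replicate 2. The mean was 516 ± 129 with GDF15 and 364 ± 77.7 without (SD, n = 3 each), a log2 ratio of 0.51. Here the excess of GDF15 replicate 1 over the mean of GDF15 replicates 2 and 3 was 1.49, nearer to the median of the higher features. The coefficient of variation of C1RL was 24.99% with GDF15 and 21.4% without, and untreated replicate 2 was its lowest library.

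**Figure D2:**
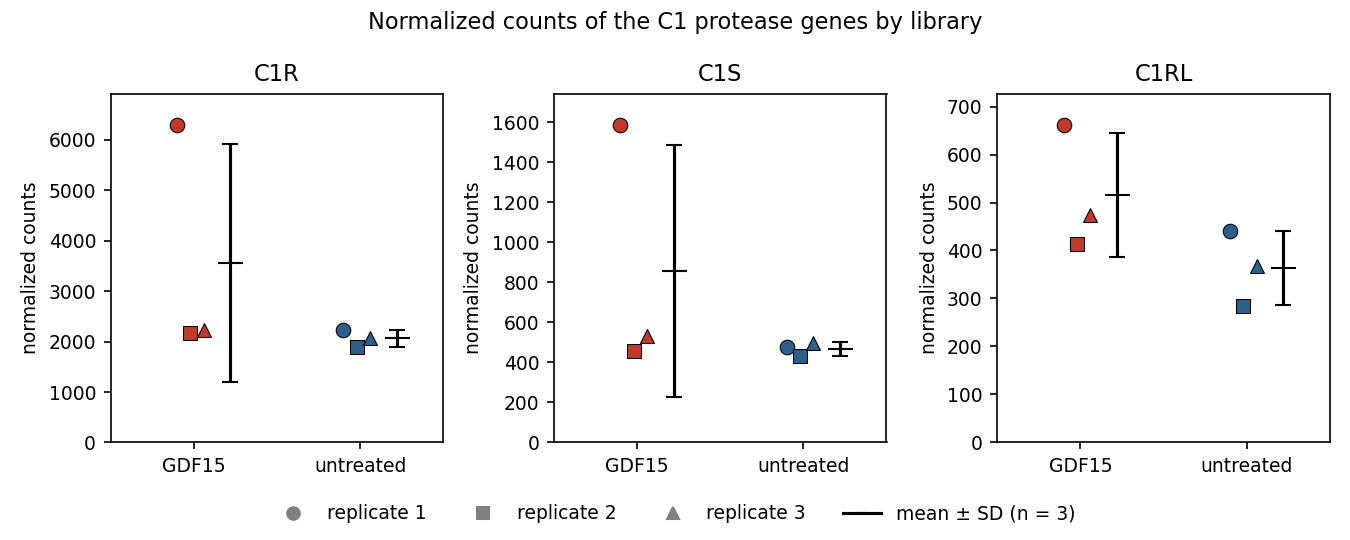
Normalized counts of C1R, C1S and C1RL (y axis, from 0) in the GDF15 and untreated libraries. Symbols are single libraries, and black marks the mean ± SD of 3. For C1R and C1S the circle of GDF15 replicate 1 (6293 and 1585) stands apart from the other 5 libraries. The C1RL values run from 284 to 661, with GDF15 replicate 1 again highest but by a smaller factor over the next library (474).

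None of the 3 genes had groups free of overlap, whereas 61.7% of the features listed as higher did, and 67.8% of all 453 features in either direction. In the authors' deposited table the log2 fold changes were 0.79 for C1R, 0.87 for C1S and 0.51 for C1RL, with unadjusted p of 0.0336, 0.0318 and 0.0401. All 453 features (100%) had an unadjusted p under 0.05 in that authors' deposited table. Each of the 3 genes shared an adjusted p of 0.911 with every other feature, so that 0 of 453 (0%) had an adjusted p under 0.05 in the authors' deposited table, for which the submitters' notes name DESeq2. By limma on log2(normalized count + 1) over the 453 features, 159 had an unadjusted p under 0.05. Limma gave log2 differences of 0.60 ± 0.42 for C1R, 0.63 ± 0.46 for C1S and 0.50 ± 0.27 for C1RL (± SE). These errors describe the spread between libraries of features selected on their difference, and no test is drawn from them.

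Leaving out libraries separated C1R and C1S from C1RL. The log2 ratio of means without GDF15 replicate 1 was 0.092 for C1R and 0.073 for C1S, against 0.79 and 0.87 with all libraries. For C1RL it was 0.29 without that library and 0.51 with it. Of the 274 higher features, 266 then had a larger log2 ratio than C1R and 269 a larger one than C1S, and their median was 0.48. For C1RL, 217 features were above it without that library and 216 with all libraries. Without untreated replicate 2, the lowest untreated library of all 3 genes, the log2 ratio was 0.73 for C1R, 0.81 for C1S and 0.36 for C1RL. With both of these libraries left out it was 0.032, 0.016 and 0.14. GDF15 replicate 1 also held the highest value of 65.7% of the features listed as higher, and its part in the difference between the groups was not tested.

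**Figure D3:**
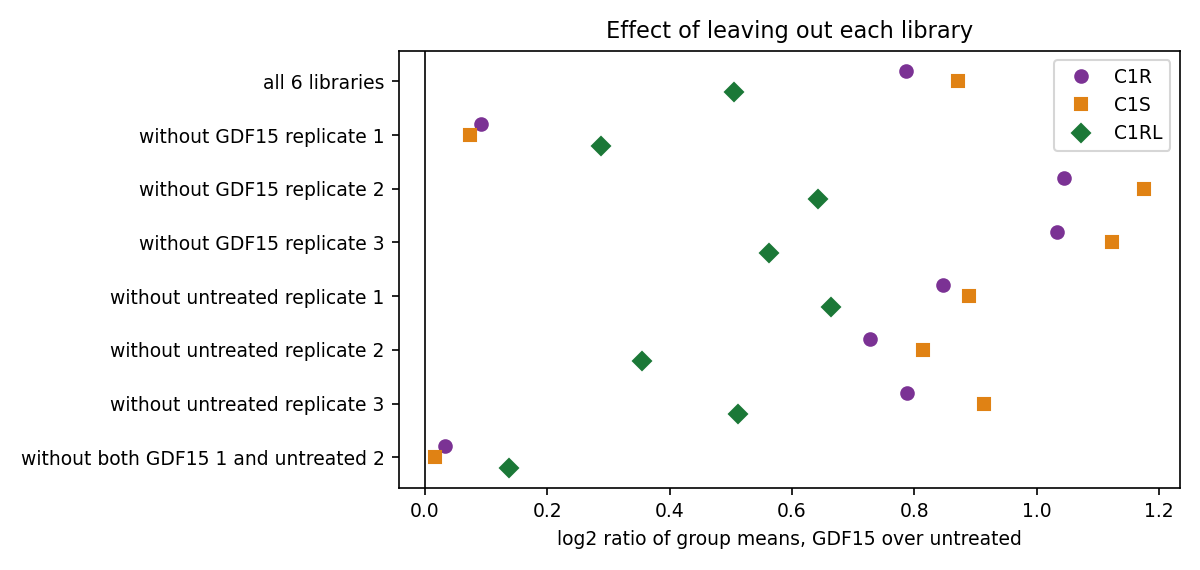
Log2 ratio of group means, GDF15 over untreated (x axis), for C1R, C1S and C1RL with all 6 libraries and with the libraries named on the y axis left out. C1R and C1S drop to 0.092 and 0.073 without GDF15 replicate 1, and C1RL to 0.29.

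**Figure D4:**
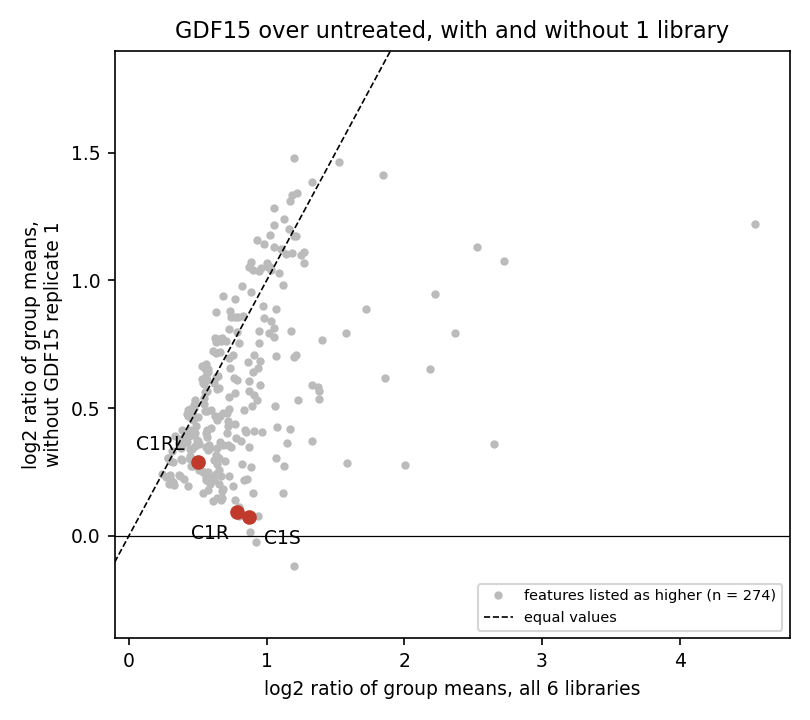
Log2 ratio of group means without GDF15 replicate 1 (y axis) against that with all 6 libraries (x axis) for the 274 features listed as higher (grey), with the C1 protease genes in red. The dashed line marks equal values. C1R and C1S lie at 0.092 and 0.073 on the y axis, below 266 and 269 of these features.

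Ratios between the genes within a library do not depend on its scaling factor. The C1R/C1S ratio of normalized counts was 3.97, 4.77 and 4.22 in GDF15 replicates 1, 2 and 3, and 4.67, 4.40 and 4.19 in untreated replicates 1, 2 and 3. These ratios stayed within a 1.20-fold range although both genes varied over 3-fold. The mean ratio was 4.32 ± 0.41 with GDF15 and 4.42 ± 0.24 without (SD, n = 3 each), and the groups overlapped. GDF15 replicate 1 had the lowest ratio, with an exact binomial 95% interval of 3.75 to 4.20, against 4.22 to 5.17 in untreated replicate 1 and 3.84 to 4.58 in untreated replicate 3. On the log2 scale the difference between groups was -0.04, and it was 0.02 without GDF15 replicate 1.

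C1RL did not keep such a ratio to its neighbours. The C1RL/C1R ratio was 0.105, 0.190 and 0.212 in GDF15 replicates 1, 2 and 3, against 0.197, 0.150 and 0.177 in the untreated libraries. Its interval in GDF15 replicate 1 was 0.0967 to 0.114, below the intervals of the other 5 libraries, the lowest of which began at 0.133. The C1RL/C1S ratio was 0.417 in GDF15 replicate 1, 0.909 in GDF15 replicate 2 and 0.895 in GDF15 replicate 3. In the untreated libraries it was 0.918, 0.661 and 0.742. GDF15 replicate 1 was thus the lowest library for both ratios, and GDF15 replicates 2 and 3 lay at or near the top. The log2 difference between groups was -0.10 for C1RL/C1R and -0.14 for C1RL/C1S, and without GDF15 replicate 1 it was 0.21 and 0.23, that is, of the opposite sign.

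**Figure D5:**
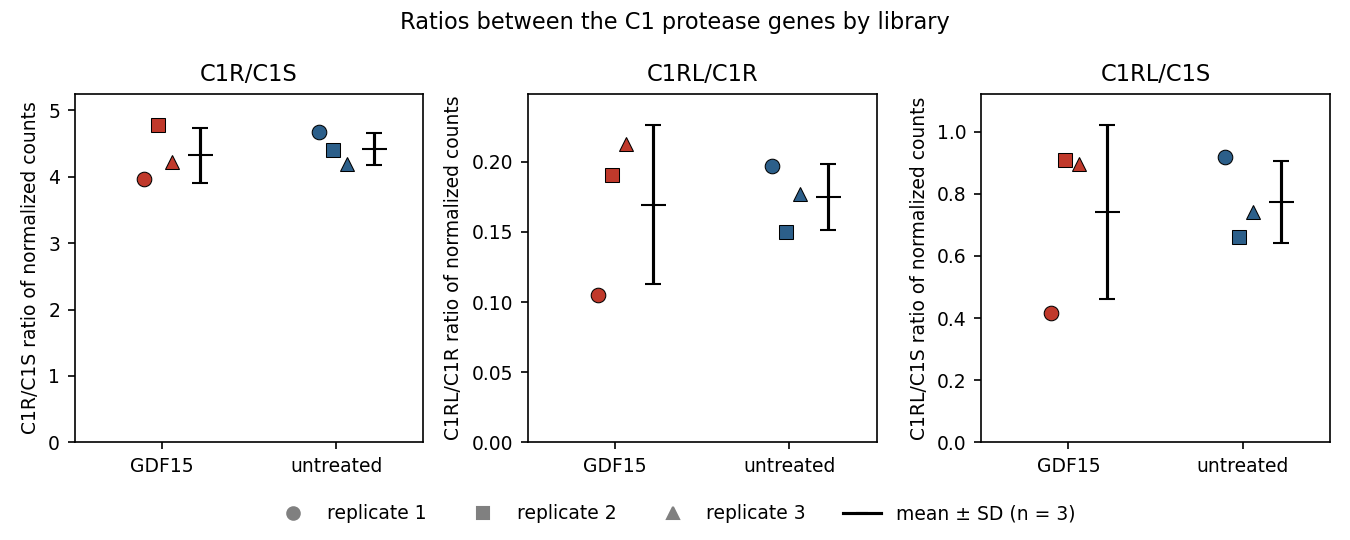
Ratios of normalized counts between C1R, C1S and C1RL (y axes, from 0) in the GDF15 and untreated libraries, with symbols for single libraries and black marks for the mean ± SD of 3. C1R/C1S stays between 3.97 and 4.77, while both C1RL ratios are lowest in GDF15 replicate 1 (0.105 and 0.417).

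Over all 6 libraries Pearson's r of log2(normalized count + 1) was 0.99 for C1R and C1S, 0.85 for C1RL and C1R and 0.83 for C1RL and C1S. Over the 5 libraries without GDF15 replicate 1 it was 0.70 for C1R and C1S, 0.99 for C1RL and C1R and 0.77 for C1RL and C1S. In those 5 libraries C1R varied by 1.18-fold and C1S by 1.23-fold, and the Poisson intervals of C1S reached up to 10.2% above its values. These correlations are descriptions over few libraries that share their scaling, and reads shared by the overlapping genes C1R and C1RL may enter that of C1RL and C1R.

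Per kilobase of principal transcript, C1R was the highest of the 3 genes. It had 1341 ± 888 normalized counts per kb with GDF15 and 777 ± 64.3 without (SD, n = 3 each). C1S had 288 ± 213 and 157 ± 11.3, and C1RL 152 ± 38.0 and 107 ± 22.9. In untreated cells C1R stood 4.93-fold above C1S per kb, or 4.85-fold when all annotated exonic bases were taken as the length. C1S stood 1.47-fold above C1RL by the first length and 1.00-fold by the second, so the order of C1S and C1RL depended on the length used.

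Of 54 complement and C1q-related genes listed beside the proteases, 2 were in the table, both as higher, where 60.5% of all 453 features were. They were C1QTNF1 and C1QTNF6, which encode secreted proteins with a C1q-like domain and are not subunits of C1. The list was written with earlier results of these data known, and it named no other C1QTNF genes. The count of 2 is therefore not the result of a blind search. The C1q chains, the C1 inhibitor gene SERPING1 and the genes of C2, C3, C4 and the later components were on the list but not in the table. Their levels were therefore not analysed here. The table holds only features selected on this contrast, so their absence does not show that they were unexpressed. C1QTNF1 had 709, 302 and 298 normalized counts in GDF15 replicates 1, 2 and 3, against 263, 213 and 264 in the untreated libraries, with no overlap and GDF15 replicate 1 far above the rest. C1QTNF6 had 133, 152 and 166 with GDF15, against 117, 85.3 and 109 without, with no overlap and GDF15 replicate 1 the lowest of its group. The pair thus differed in which GDF15 library was highest.

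Among 414 named genes with a mean of at least 20 normalized counts, those most like the mean profile of C1R and C1S were EPSTI1, DHX58, TAP1, SLC15A3 and TMEM132A. Likeness was Pearson's r over the 6 libraries, at 1.00 for EPSTI1, 0.99 for DHX58, 0.99 for TAP1, 0.99 for SLC15A3 and 0.98 for TMEM132A. EPSTI1, an interferon-induced gene, had 1254, 335 and 393 normalized counts in GDF15 replicates 1, 2 and 3, against 369, 323 and 344 in the untreated libraries. DHX58, which encodes a RIG-I-like RNA sensor, had 1429, 440 and 518 with GDF15, against 421, 407 and 450 without. TAP1, a subunit of the peptide transporter of antigen presentation, had 5308, 2208 and 2334 with GDF15, against 2245, 1800 and 2112 without. GDF15 replicate 1 stood apart in EPSTI1, DHX58 and TAP1, and the remaining libraries of both groups overlapped. SLC15A3, a peptide and histidine transporter gene, had 2568, 902 and 1067 with GDF15, against 831, 746 and 873 without. TMEM132A had 9496, 5023 and 5117 with GDF15, against 4476, 4142 and 4924 without. GDF15 replicate 1 was highest in these 2 genes as well, but GDF15 replicates 2 and 3 also lay above all untreated libraries. Over the 5 libraries without it r was 0.91 for EPSTI1, 0.79 for DHX58, 0.95 for TAP1, 0.86 for SLC15A3 and 0.75 for TMEM132A.

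The genes least like C1R and C1S were AK5, LINC00513 and SLC16A10, with r of -0.89, -0.86 and -0.86. AK5, an adenylate kinase gene, had 743, 1134 and 1011 normalized counts in GDF15 replicates 1, 2 and 3, against 1147, 1478 and 1333 in the untreated libraries. The groups did not overlap, and GDF15 replicate 1 was the lowest of all. SLC16A10, an aromatic amino acid transporter gene, had 42.4, 59.5 and 61.0 with GDF15, against 77.8, 87.2 and 78.4 without. LINC00513, a long non-coding RNA, had 36.2, 58.4 and 55.4 with GDF15, against 85.0, 77.7 and 77.6 without.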

How the data were processed

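Poly(A) RNA of 3 GDF15 and 3 untreated LX2 libraries was measured. Per the labels' protocols, ERCC spike-ins were added before oligo(dT) selection and NEBNext Ultra II library preparation. Tools named in the submitters' processing notes are DESeq2, featureCounts with Subread 1.5.2, STAR 2.5.2b and Trimmomatic 0.36, and the build is GRCh38. The sources used here do not give their order, settings, annotation or use of strand. The authors deposited 1 table with 6 columns of signal, the normalized counts. It also holds a log2 fold change by the authors, with GDF15 on top, and p-values of the authors, unadjusted and adjusted. Columns were matched to libraries by the library names in the labels, and 0 columns per sample were left unmapped.

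Group means, SDs, log2 ratios of means, ratios between genes and their exact binomial intervals were computed in Python 3.11.15 with pandas 2.3.3, numpy 2.4.6 and scipy 1.17.1, and drawn with matplotlib 3.10.9. Limma 3.58.1 in R 4.3.3 was fitted to log2(normalized count + 1) of all 453 features and used for standard errors. A fold on that scale understates that of low genes. The fit was tested on simulated counts for its mean estimates and its share of unadjusted p under 0.05. Those counts had no selection on the difference and no outlying library, so the run does not bear on the standard errors given here. Genes named beside C1R, C1S and C1RL were those of the complement list in the table, and the 5 most and 3 least like the mean profile of C1R and C1S. The members and lists were chosen with earlier results of these data known, and the 9 motifs after the promoter sequences were seen. An exact permutation test of 3 against 3 libraries cannot go below 0.10 and was not run. A principal transcript is the GENCODE release 29 basic APPRIS principal one with the longest coding sequence.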

Additional observations from a re-analysis of the deposited data

How the results depend on the processing

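Over the 42 alternatives tried for the log2 ratios of means of C1R, C1S and C1RL, all 42 values were above 0, but several were near it. They include a replicate block, whose values repeat by design the differences of mean log2(normalized count + 1). Ratios of medians gave 0.11 for C1R and 0.15 for C1S. Leaving out 1 library at a time gave 0.092 to 1.04 for C1R, 0.073 to 1.18 for C1S and 0.29 to 0.66 for C1RL, the lowest each time without GDF15 replicate 1. With GDF15 replicate 1 and untreated replicate 2 both left out the values were 0.032, 0.016 and 0.14. Scaling to an equal sum over the 453 features gave 0.38, 0.45 and 0.19, and scaling to their median ratio 0.53, 0.61 and 0.30. These scalings moved the median log2 ratio of all 453 features by -0.29 and -0.20, to 0.18 and 0.27 against 0.47 as deposited. The ratios between genes moved by less than 1 SD between libraries under each alternative. That SD includes GDF15 replicate 1, and without this library the log2 difference of each ratio changed sign. Less than 1 SD is therefore no sign of stability here. Leaving out single libraries gave log2 differences of -0.11 to 0.02 for C1R/C1S, -0.30 to 0.21 for C1RL/C1R and -0.33 to 0.23 for C1RL/C1S. The 307 features without overlap were 310 to 415 when 1 library was left out and 194 at a mean of at least 100, where fewer features were counted. The planned edgeR fit on reads recovered from the values was not run. Same-numbered libraries deviated together with r of 0.11, 0.22 and -0.05 over features. GDF15 replicates 1 and 2 correlated best with their own number, and GDF15 replicate 3 did not. The numbers were not taken as pairs, and whether same-numbered libraries belong together was not tested. C1R, C1S and C1RL were each higher in the GDF15 library than in the untreated library of the same number. For C1S the normalized counts were 455 against 430 in replicate 2 and 530 against 495 in replicate 3, with overlapping Poisson intervals. The intervals of C1R overlapped in replicate 3 but not in replicate 2, and those of C1RL overlapped in neither. They cover counting error only. With the number as a replicate block in limma the log2 differences were 0.60, 0.63 and 0.50. A block cannot change them in this balanced design, so their equality shows nothing. The standard errors were 0.32, 0.37 and 0.21 with the block and 0.42, 0.46 and 0.27 without it. For the ratios between genes the log2 differences with the block, -0.04, -0.10 and -0.14, were likewise fixed by the design.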

Other observations

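The profile of C1RL, compared with the same 414 genes after its values had been seen, was most like those of IL7R, STAT2, GFPT2, GPX3 and FNDC3B, with Pearson's r over 6 libraries of 0.99 to 0.98. None of these 5 genes was among the 5 most like C1R and C1S. STAT2, which encodes a transcription factor of the type I interferon response, had 2663, 1585 and 1803 normalized counts in GDF15 replicates 1, 2 and 3, against 1631, 1211 and 1409 in the untreated libraries, with untreated replicate 1 above GDF15 replicate 2. IL7R, the interleukin-7 receptor gene, had 9412, 4589 and 5161 with GDF15, against 5263, 2921 and 4186 without. In both, as in C1RL, untreated replicate 2 was the lowest library. Without GDF15 replicate 1 the r to C1RL was 0.99 for STAT2 and 0.98 for IL7R. The genes least like C1RL were PPP1R14A, an inhibitor of myosin phosphatase, and the fatty acid binding gene FABP5, each with r of -0.99. PPP1R14A had 128, 243 and 194 normalized counts with GDF15, against 196, 414 and 274 without.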
